A study of Homo sapiens with 4 samples.

Results

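The transcripts of 10 genes that encode readers of N6-methyladenosine (m6A) were followed into RNA pulled down with the m6A demethylase ALKBH5. The genes were taken by symbol, by a rule that uses no measured value: YTHDF1, YTHDF2, YTHDF3, YTHDC1, YTHDC2, IGF2BP2, IGF2BP3, PRRC2A, FMR1 and FXR1. The list was drawn up with earlier results of these data known. All 10 are among the 26830 gene symbols of the deposited expression table. RNA immunoprecipitation with sequencing (RIP-seq) was done in NOMO-1 cells, an established line from a patient's acute myeloid leukaemia that has monocytic features. All cells carried a lentivirus for the ALKBH5 coding sequence with a 3xFlag tag. Puromycin selection came first, then a sort of GFP-positive cells, and UV light crosslinked protein to RNA before lysis. There were 2 groups of 2 libraries, input RNA (input 1 and 3) and RNA recovered with an anti-Flag antibody (Flag-IP 1 and 3). The promoter that drives the tagged protein is not given in the sources used here, and no anti-Flag pull-down from untagged cells is analysed here. Whether the libraries of a group come from separate cultures is not stated. A p-value here therefore rests only on the spread of these libraries, which may be technical. In the fit on deposited values that spread was pooled over genes, so a gene's own spread did not set its p-value.

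m6A is the most common internal modification of mRNA. A methyltransferase complex writes it, ALKBH5 and FTO remove it, and readers bind it and pass the mRNA on to decay, translation, splicing or export. The YTH family holds the methyl group in an aromatic pocket of its YTH domain: the YTHDF proteins act in the cytoplasm, YTHDC1 in the nucleus, and YTHDC2 is also a helicase. IGF2BP2 and IGF2BP3 bind RNA through KH domains and stabilise it, PRRC2A is a large proline-rich protein, and FMR1 and FXR1 are the fragile X family's KH-domain proteins. YTHDF2 and the IGF2BP proteins have been studied as supports of leukaemic cells. The values below are the levels of the readers' own mRNAs, not the RNAs that the reader proteins bind.

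Before the values, sequences show how far related readers can be told apart by reads and where the usual m6A consensus lies. The longest coding stretch shared by YTHDF1 and YTHDF2 is 20 bases, printed in capitals with 10 bases on either side (transcripts of GENCODE 29, GRCh38).
YTHDF1 (chr20:63202728-63202767, minus strand): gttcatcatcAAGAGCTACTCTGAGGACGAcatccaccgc
YTHDF2 (chr1:28743506-28743545, plus strand): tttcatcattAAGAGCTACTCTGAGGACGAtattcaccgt
For the other related pairs the longest shared coding stretch was shorter: 17 bases for YTHDF3 with either YTHDF1 or YTHDF2, 14 for IGF2BP2 with IGF2BP3, 14 for FMR1 with FXR1 and 12 for YTHDC1 with YTHDC2. No window of 50 bases in the longest coding transcripts of YTHDF1, YTHDF3, YTHDC1, YTHDC2 and FMR1 occurs in an annotated transcript of another gene. For YTHDF2, 12.2% of such windows are shared with the processed pseudogene YTHDF2P1. For IGF2BP3 the share is 9.47%, nearly all with 1 processed pseudogene, and for IGF2BP2 it is 8.55% over 3 other genes. The values of these 3 genes may include reads of those copies or lose reads to them. For PRRC2A (0.0731%) and FXR1 (0.369%) hardly any window is shared.

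Methylation by the main writer complex favours short motifs of which GGACT is the best known. The motif was searched on the transcript strand of the longest coding transcript and is in capitals below, with 10 bases on either side. YTHDF1, YTHDF2 and PRRC2A are shown because they are the readers on which the comparison turns, so they were picked with the values known.
YTHDF1 coding site: agtcccccgtGGACTacggcaccag
YTHDF2 coding site: aatctgctgtGGACTacaacacatg
YTHDF2 first 3′ UTR site: aagagaattaGGACTtttttcttaa
YTHDF2 second 3′ UTR site: aaaagacataGGACTtaactggaaa
PRRC2A site 1: tggagggcccGGACTccaaacttca
PRRC2A site 2: gcccccctggGGACTacccagatcg
PRRC2A site 3: ggcttcggagGGACTattcgtatga
PRRC2A site 4: ggggtgggtgGGACTcctcgggact
PRRC2A site 5: ggactcctcgGGACTctgccggggt
PRRC2A site 6: ccctgatggaGGACTcaagggggca
PRRC2A site 7: ctagtgacaaGGACTcagacttacg
PRRC2A site 8: ggggagccatGGACTctcaattaca
PRRC2A site 9: ggatcatcacGGACTcccccaactg
YTHDF1 has 1 motif, at chr20:63202568-63202572 in the coding sequence. YTHDF2 has 3, of which 1 is coding (chr1:28743701-28743705). All 9 of PRRC2A are coding and lie on chromosome 6 between 31625515 and 31637122; the windows of sites 4 and 5 overlap, and site 7 spans an exon junction. Over the 10 readers the motif stood from 0.231 (FMR1) to 1.36 (IGF2BP2) times per kilobase. It stood 1.31 times in PRRC2A, 1.03 times in YTHDF2 and 0.303 times in YTHDF1, against a median of 0.948 across 6121 tested protein-coding genes. Of all those transcripts 91.6% hold it at least once. A match is not a measured methylation site, and the values per gene do not show where within a transcript the recovered RNA lay.

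Levels were deposited as TPM, a length-corrected relative abundance of transcripts that sums to 1000000 in each library. TPM keeps no read depth, so no counting error is given. Structural RNAs (ribosomal, 7SL, 7SK, small nucleolar and spliceosomal RNAs and the like) took 96.35% to 96.8% of input and 92.51% to 93.58% of Flag-IP, and other genes took the rest. A typical gene had a higher TPM in Flag-IP: the median Flag-IP to input ratio was 2.38 over the 6487 genes that averaged 1 TPM or more. Differences are accordingly given both as deposited and relative to the typical gene, with each library divided by its median ratio to the genes' geometric means (the median-ratio scale). In a bulk library, less RNA per cell and fewer cells with that RNA cannot be told apart. As a check of the cell line, 7 of 12 myeloid markers, among them CTSG, ELANE and SPI1, averaged 1 TPM or more. The other 5 myeloid markers did not. LYZ averaged 0.945 TPM, ITGAM was at 0.18 to 0.56 TPM and MPO at 0.01 to 0.13 TPM. CSF1R was at 0.01 to 0.03 TPM, and CD14 was listed at 0 in all libraries. The 12 summed to 70.68 and 83.33 TPM in input and to 126.96 and 122.03 TPM in Flag-IP. Relative to the typical gene 5 of the 7 were called lower in Flag-IP, where 18.6% of all tested genes were called lower and 22.3% higher. Their longest coding transcripts ran from 886 bases (CTSG) to 2631 bases (CEBPA), against a median of 3200 bases over tested protein-coding genes. The part of length in this, or of this in the readers' differences, was not tested. ALKBH5 itself, which all cells overexpress, was at 4.62 and 4.91 TPM in input and 10.09 and 8.91 TPM in Flag-IP. Erythroid, B cell, epithelial and fibroblast markers summed to at most 0.29 TPM per list in any library, and of 5 T and NK cell markers only NKG7 was above 0.02 TPM (12.02 to 23.87 TPM).

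Most readers had a low deposited TPM in input, and PRRC2A was the exception. Because structural RNAs took most of each library, a low TPM here does not show a low level among mRNAs. Of the 26830 symbols, 4076 in input 1 and 4543 in input 3 reached 1 TPM. PRRC2A stood at 9.88 and 13.02 TPM in input, and none of the other 9 reached 2 TPM there. Next was YTHDF1 (1.76 ± 0.233 TPM, mean ± SD, n = 2), followed by IGF2BP3 (1.21 in both inputs), YTHDF2 (1.19 ± 0.177), FXR1 (1.16 ± 0.0424), IGF2BP2 (1.10 ± 0.219) and YTHDF3 (0.975 ± 0.0636). From IGF2BP3 to YTHDF3, each neighbouring pair in this order overlapped. YTHDC1 (0.540 ± 0.0990), YTHDC2 (0.515 ± 0.0919) and FMR1 (0.475 ± 0.00707) were lowest and did not differ beyond their spread. IGF2BP1, the remaining IGF2BP gene, was listed at 0 in all 4 libraries.

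In Flag-IP the order changed. PRRC2A was again far above the rest, at 51.67 and 45.31 TPM. YTHDF2 came next (3.25 ± 0.530 TPM), then IGF2BP3 (2.70 ± 0.856), YTHDF1 (2.64 ± 0.134), YTHDC2 (2.45 ± 0.735), FXR1 (2.29 ± 0.495) and YTHDC1 (2.21 ± 0.375). IGF2BP2 (1.82 ± 0.233), YTHDF3 (1.62 ± 0.361) and FMR1 (1.04 ± 0.346) were at the end. Neighbours in this order overlapped, except that PRRC2A lay above YTHDF2 and YTHDF3 above FMR1 in both libraries. Flag-IP 1 was above Flag-IP 3 for all 10 readers, as it was for the scaling factor of the whole library (1.72 and 1.40).

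**Figure D1:**
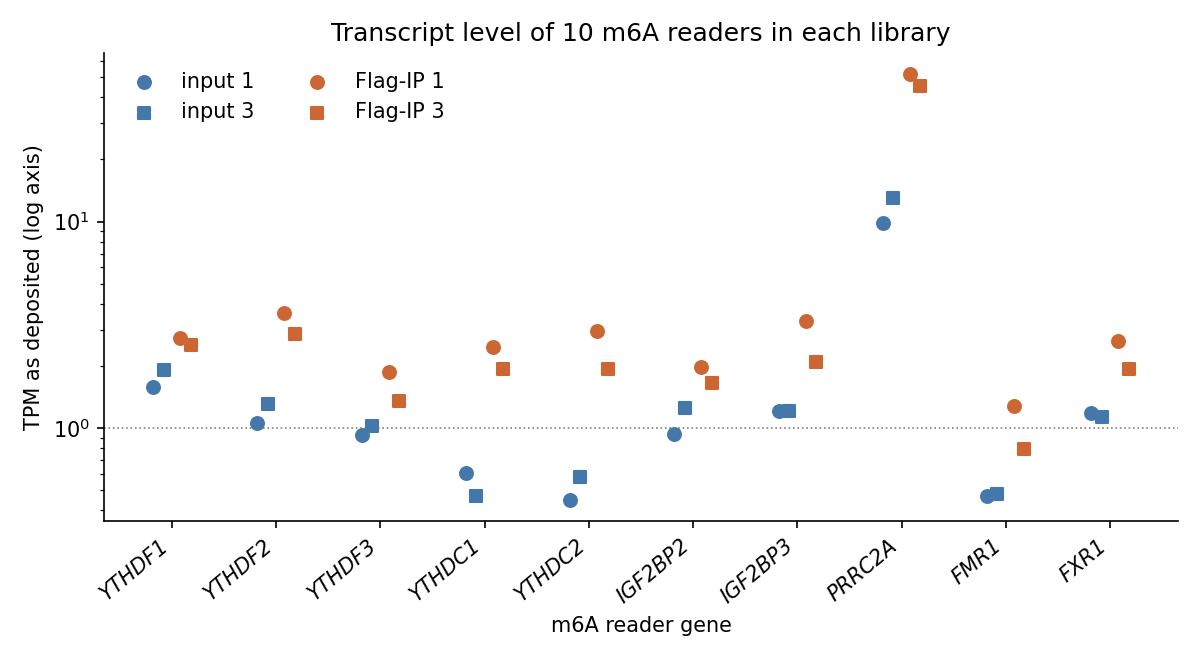
TPM as deposited (log axis) of the 10 readers; each point is 1 library, blue for input and orange for Flag-IP, circles for number 1 and squares for number 3, and the dotted line marks 1 TPM. Both Flag-IP points lie above both input points for every reader, and PRRC2A lies above all others in each library.

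As deposited, 8 of the 9 tested readers were higher in Flag-IP (limma on log2(TPM + 1), Benjamini-Hochberg adjusted p below 0.05) and none was lower. The same test called 86.6% of all tested genes higher and 0.740% lower, so this count is near the background. FMR1 fell under the filter, a mean of 1 TPM. YTHDF3, YTHDC1 and YTHDC2 had input means below 1 TPM and passed the filter through their Flag-IP values. Their own calls and the counts over tested readers are therefore a description only. Both Flag-IP libraries exceeded both inputs for all 10 readers, as they did for 93.1% of tested genes, and lay below both for 1.09%. YTHDF1 was the reader that did not pass (0.40 ± 0.21 on the log2 scale, limma adjusted p = 0.0606). With a pseudocount of 0.1 in place of 1 it did (0.57, limma adjusted p = 0.0483). The median difference of the 9 was 0.72, against 0.84 over all tested genes.

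Relative to the typical gene, 3 of the 9 tested readers were called higher (PRRC2A, YTHDC2 and YTHDC1) and 1 lower (YTHDF1). The other 5 tested did not pass. Over all genes the same fit called 22.3% higher and 18.6% lower, 1444 and 1207 genes, so such a split is near the background. YTHDC2 and YTHDC1 met the filter through Flag-IP alone, so the reader counts are a description. With structural RNAs taken out before scaling the genes called numbered 2037 and 656, and the median of all genes then lay at 0.15. The median of the 9 readers was -0.09 and that of all tested genes -0.01. On this scale both Flag-IP libraries were above both inputs for 37.0% of tested genes and below for 37.1%.

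**Figure D2:**
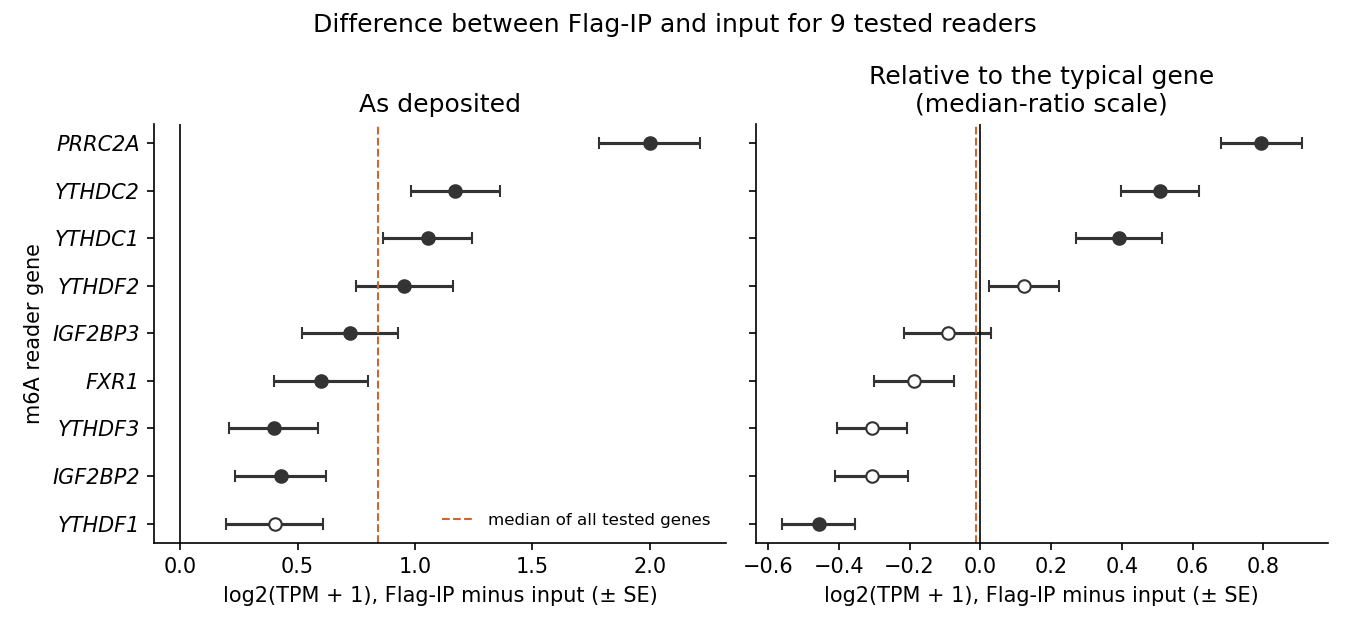
Flag-IP minus input in log2(TPM + 1) (points) with its standard error from limma (bars) for the 9 tested readers, as deposited on the left and after median-ratio scaling on the right; filled points passed an adjusted p below 0.05 and the dashed line is the median of all tested genes. PRRC2A has the largest difference on both scales (2.0 and 0.79) and YTHDF1 the lowest on the right (-0.46).

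PRRC2A (chromosome 6, 31620720 to 31637771, plus strand, GRCh38) binds methylated mRNA as a coding-region reader and is best known from oligodendrocyte development. It rose from 9.88 and 13.02 TPM in input to 51.67 and 45.31 TPM in Flag-IP (ratio of means 4.24). That ratio was above those of 84.1% of tested genes. The difference was 2.0 ± 0.21 on the log2 scale as deposited (limma adjusted p = 2.77e-19). On the median-ratio scale it was 0.79 ± 0.11 (limma adjusted p = 0.00396). Of the 3 readers called higher on both scales it was the one whose calls held under every alternative tried. Its median-ratio difference moved most with quantile scaling (1.20, limma adjusted p = 0.00206) and with the trend on transcript length removed (0.49, limma adjusted p = 0.00515). Its share of the summed TPM of the 10 readers went from 53.9% and 58.2% in input to 69.3% and 72.6% in Flag-IP, and the 2 groups did not overlap. Such separation was common: PRRC2A over a single other tested gene rose with no overlap for 76.1% of genes.

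PRRC2B and PRRC2C are the relatives of PRRC2A. PRRC2B rose from 2.08 ± 0.438 to 15.1 ± 2.21 TPM (1.35 ± 0.11 relative to the typical gene, limma adjusted p = 0.000857). PRRC2C went from 6.16 ± 0.509 to 16.4 ± 3.56 TPM, and its relative difference of 0.12 ± 0.10 did not pass (limma adjusted p = 0.376). The ratio of PRRC2A to PRRC2B within a library, which does not depend on any scaling, was 5.58 and 5.45 in input and 3.11 and 3.36 in Flag-IP. The ratio of PRRC2A to PRRC2C was 1.70 and 2.0 in input and 2.73 and 3.26 in Flag-IP. Neither ratio overlapped between groups, which is common: PRRC2A over another tested gene was higher in Flag-IP with no overlap for 76.1% of genes and lower for 10.5%. Both reached the smallest exact permutation p that 2 libraries against 2 allow, 0.333 (0.666 after Benjamini-Hochberg adjustment over 8 pairs). By distance over the 4 libraries on the median-ratio scale, the tested protein-coding genes most like PRRC2A were FOXP4 (Euclidean distance 0.317 in log2 units), ADGRA2 (0.322) and HIST1H4A (0.521).

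YTHDC1 and YTHDC2, the YTH proteins outside the YTHDF group, had ratios close to that of PRRC2A at a far lower level. YTHDC1 (chromosome 4, 68310387 to 68350089, minus strand) guides splicing and export of methylated RNA in the nucleus. It was at 0.61 and 0.47 TPM in input and 2.47 and 1.94 TPM in Flag-IP (ratio of means 4.08). YTHDC2 (chromosome 5, 113513683 to 113595285, plus strand), a helicase known from meiosis, was at 0.45 and 0.58 TPM in input and 2.97 and 1.93 TPM in Flag-IP (ratio of means 4.76). For both genes the 2 Flag-IP values lay above the 2 input values, as they did for 93.1% of tested genes. The ratio of YTHDC2 to YTHDC1 within a library (0.738 and 1.23 in input, 1.20 and 0.995 in Flag-IP) overlapped between groups. Relative to the typical gene YTHDC2 was higher by 0.51 ± 0.11 (limma adjusted p = 0.0148) and YTHDC1 by 0.39 ± 0.12 (limma adjusted p = 0.0463). Both genes met the filter through Flag-IP alone, so these differences and p-values are a description. The addition of 1 TPM shrinks such low values: with a pseudocount of 0.1 the differences were 0.88 (adjusted p = 0.0157) and 0.70 (adjusted p = 0.0556) in limma.

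Neither call held in every fit with 1 library left out. The YTHDC1 difference ran from 0.26 to 0.56 over these fits, and that of YTHDC2 from 0.50 to 0.59 where it was tested. In limma on the median-ratio scale, YTHDC1 did not pass without input 3 (0.26, adjusted p = 0.193), without Flag-IP 1 (0.37, adjusted p = 0.131) or without Flag-IP 3 (0.40, adjusted p = 0.118). YTHDC2 did not pass in limma without input 1 (0.50, adjusted p = 0.0537) and fell under the filter without Flag-IP 1. Without a filter neither did (limma adjusted p = 0.137 for YTHDC1 and 0.0571 for YTHDC2). Quantile scaling gave 0.23 for YTHDC1 and 0.36 for YTHDC2 (limma adjusted p = 0.146 and 0.0521).

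The YTHDF genes encode close relatives that bind methylated mRNA in the cytoplasm; YTHDF2 is best known for recruiting the CCR4-NOT deadenylase. YTHDF1 (chromosome 20, 63195429 to 63216234, minus strand) was at 1.59 and 1.92 TPM in input and 2.73 and 2.54 TPM in Flag-IP (ratio of means 1.501). A share of 13.6% of tested genes had a smaller ratio. YTHDF3 (chromosome 8, 63168553 to 63212786, plus strand) was at 0.93 and 1.02 TPM in input and 1.87 and 1.36 TPM in Flag-IP (ratio of means 1.66). YTHDF2 (chromosome 1, 28736621 to 28769775, plus strand) was at 1.06 and 1.31 TPM in input and 3.62 and 2.87 TPM in Flag-IP (ratio of means 2.74). Only the ratio of YTHDF2 was above that of the median gene.

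Relative to the typical gene YTHDF1 was lower by -0.46 ± 0.10 (limma adjusted p = 0.0169). Its call was lost without input 3 (-0.47, limma adjusted p = 0.0504), without Flag-IP 1 (-0.34, limma adjusted p = 0.106) and with structural RNAs taken out before scaling (-0.29, limma adjusted p = 0.0683). YTHDF3 stood at -0.31 ± 0.10 and just missed the threshold (limma adjusted p = 0.0509); it passed with quantile scaling, which called 19.2% of all tested genes higher and 18.8% lower (-0.42, limma adjusted p = 0.0213), and with the length trend removed (-0.52, limma adjusted p = 0.00278). YTHDF2 was at 0.12 ± 0.10 (limma adjusted p = 0.349). As deposited, YTHDF2 rose by 0.95 ± 0.21 (limma adjusted p = 9.49e-06). The deposited call of YTHDF3 (0.40 ± 0.19, limma adjusted p = 0.0420) was lost without input 1, without input 3 and without Flag-IP 1 (0.37, 0.43 and 0.26, limma adjusted p = 0.261, 0.172 and 0.124), without a filter (limma adjusted p = 0.0971) and without the mean-variance trend (limma adjusted p = 0.0928).

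Ratios within a library compare the YTHDF genes free of any scaling. YTHDF2 stood at 0.667 and 0.682 of the YTHDF1 level in the inputs and at 1.33 and 1.13 times that level in Flag-IP, so the most abundant YTHDF transcript was YTHDF1 in both inputs and YTHDF2 in both Flag-IP libraries. The groups did not overlap. The ratio to YTHDF1 moved this way, with no overlap, for 73.9% of the other tested genes and the opposite way for 7.08%. The ratio of YTHDF2 to YTHDF3 went from 1.14 and 1.28 to 1.94 and 2.11, and the ratio to YTHDF3 moved up with no overlap for 66.7% of the other tested genes and down for 8.45%. The ratio of YTHDF3 to YTHDF1 (0.585 and 0.531 in input, 0.685 and 0.535 in Flag-IP) overlapped. With 2 libraries against 2, an exact permutation test cannot go below a two-sided p of 0.333, which both YTHDF2 ratios reached (0.666 after Benjamini-Hochberg adjustment over 8 pairs). The genes nearest to YTHDF1 over the 4 libraries were PRR11 (Euclidean distance 0.0114), TSPAN18 (0.0633) and DCTPP1 (0.0708).

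**Figure D3:**
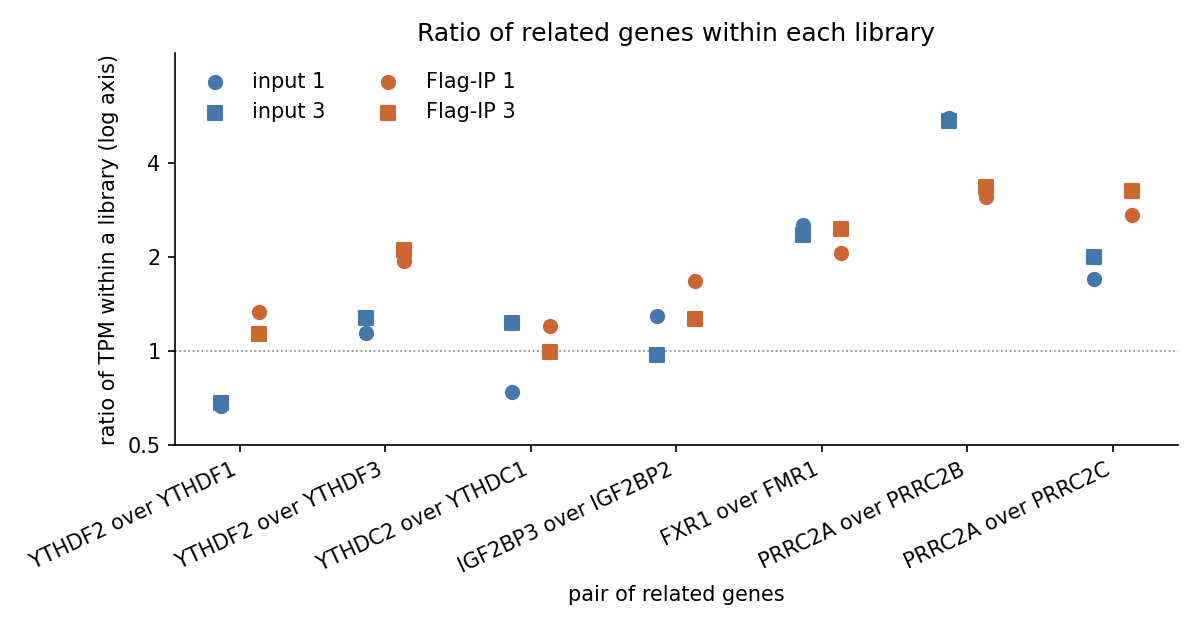
Ratio of TPM of related genes within a library (log axis), 1 point per library, blue for input and orange for Flag-IP, circles for number 1 and squares for number 3. Ratios of YTHDF2 to YTHDF1 and to YTHDF3 and of PRRC2A to PRRC2C lie higher in both Flag-IP libraries, that of PRRC2A to PRRC2B lies lower, and the other 3 of the 7 pairs drawn overlap; YTHDF3 to YTHDF1, which also overlaps, is not drawn.

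IGF2BP2 and IGF2BP3, stabilisers of methylated mRNA, did not pass relative to the typical gene. IGF2BP2 (chromosome 3, 185643739 to 185825056, minus strand) was at 0.94 and 1.25 TPM in input and 1.98 and 1.65 TPM in Flag-IP (ratio of means 1.66). IGF2BP3 (chromosome 7, 23310209 to 23470467, minus strand) was at 1.21 TPM in both inputs and at 3.30 and 2.09 TPM in Flag-IP (ratio of means 2.23). The IGF2BP3 value of Flag-IP 1 was well above that of Flag-IP 3, and the ratio of IGF2BP3 to IGF2BP2 overlapped between groups (1.29 and 0.968 in input, 1.67 and 1.27 in Flag-IP). As deposited, IGF2BP3 rose by 0.72 ± 0.20 (limma adjusted p = 0.000657) and IGF2BP2 by 0.43 ± 0.20 (limma adjusted p = 0.0336). The IGF2BP2 call was lost without input 1, input 3 or Flag-IP 1 (limma adjusted p = 0.336, 0.0965 and 0.0679, at 0.32, 0.53 and 0.34), without a filter (limma adjusted p = 0.078) and without the mean-variance trend (limma adjusted p = 0.0714). On the median-ratio scale IGF2BP2 was at -0.31 ± 0.10 (limma adjusted p = 0.0552) and IGF2BP3 at -0.09 ± 0.12 (limma adjusted p = 0.577). IGF2BP2 passed with quantile scaling (-0.41, limma adjusted p = 0.0242) and with the length trend removed (-0.41, limma adjusted p = 0.0152). The direction of IGF2BP3 turned to 0.066 with structural RNAs taken out before scaling and to 0.035 without Flag-IP 3.

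The fragile X family members FMR1 and FXR1 regulate translation of bound mRNA. FXR1 (chromosome 3, 180868141 to 180982753, plus strand) was at 1.19 and 1.13 TPM in input and 2.64 and 1.94 TPM in Flag-IP (ratio of means 1.97). FMR1 (chromosome X, 147911951 to 147951125, plus strand) was at 0.47 and 0.48 TPM in input and 1.28 and 0.79 TPM in Flag-IP (ratio of means 2.18). Both ratios lay somewhat below that of the median gene. Their ratio to each other, FXR1 over FMR1, was 2.53 and 2.35 in input and 2.06 and 2.46 in Flag-IP and overlapped. FXR1 passed as deposited (0.60 ± 0.20, limma adjusted p = 0.00396), though not without input 1 or input 3 (0.62 and 0.58, limma adjusted p = 0.0725 and 0.0803), and was at -0.19 ± 0.11 relative to the typical gene (limma adjusted p = 0.229). When all genes above 0 in any library were tested, FMR1 was at 0.45 ± 0.16 as deposited (limma adjusted p = 0.0782) and at -0.09 ± 0.10 relative to the typical gene (limma adjusted p = 0.611).

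The readers differ in transcript length and exon number. Across 6121 tested protein-coding genes, which are not independent replicates, a greater median-ratio difference went with a longer coding transcript (Spearman's rho 0.472) and with more exons (0.568). It hardly varied with GC content (-0.127) or with GGACT motifs per kilobase (0.032). Among the readers, IGF2BP2 had the most motifs per kilobase (1.36) at a difference of -0.31, and PRRC2A came next (1.31) at 0.79. YTHDC2 (0.633) and YTHDC1 (0.642) lay below the median of 0.948 motifs per kilobase, at 0.51 and 0.39. PRRC2A (6893 bases, 31 exons), YTHDC2 (6316 bases, 30 exons) and YTHDC1 (6232 bases, 17 exons) are longer than 84.3% to 87.7% of the tested protein-coding genes. YTHDF1 (3301 bases) and YTHDF2 (2925 bases) have 5 exons each and lie near the median length of 3200 bases. FXR1 is the longest reader, at 8711 bases, and its median-ratio difference was -0.19. The PRRC2A transcript has the highest share of G and C among the readers, 61.7%. YTHDF1 (51.9%), IGF2BP2 (48.7%) and YTHDF2 (47.5%) come next, and the other 6 lie between 37.6% (FXR1) and 40.5% (IGF2BP3).

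With the length trend removed by a loess fit, PRRC2A was the single reader left higher (0.49). YTHDC2 (0.23, limma adjusted p = 0.109) and YTHDC1 (0.11, limma adjusted p = 0.431) did not pass. Lower were YTHDF1 (-0.51, limma adjusted p = 0.00658), YTHDF3 (-0.52), IGF2BP2 (-0.41) and FXR1 (-0.59, limma adjusted p = 0.00278). The same fit called 20.0% of 6121 genes higher and 22.3% lower. YTHDF2 stayed at 0.11 and did not pass (limma adjusted p = 0.476). Which of length, exon number or another property goes with the recovery of a single reader was not tested.

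**Figure D4:**
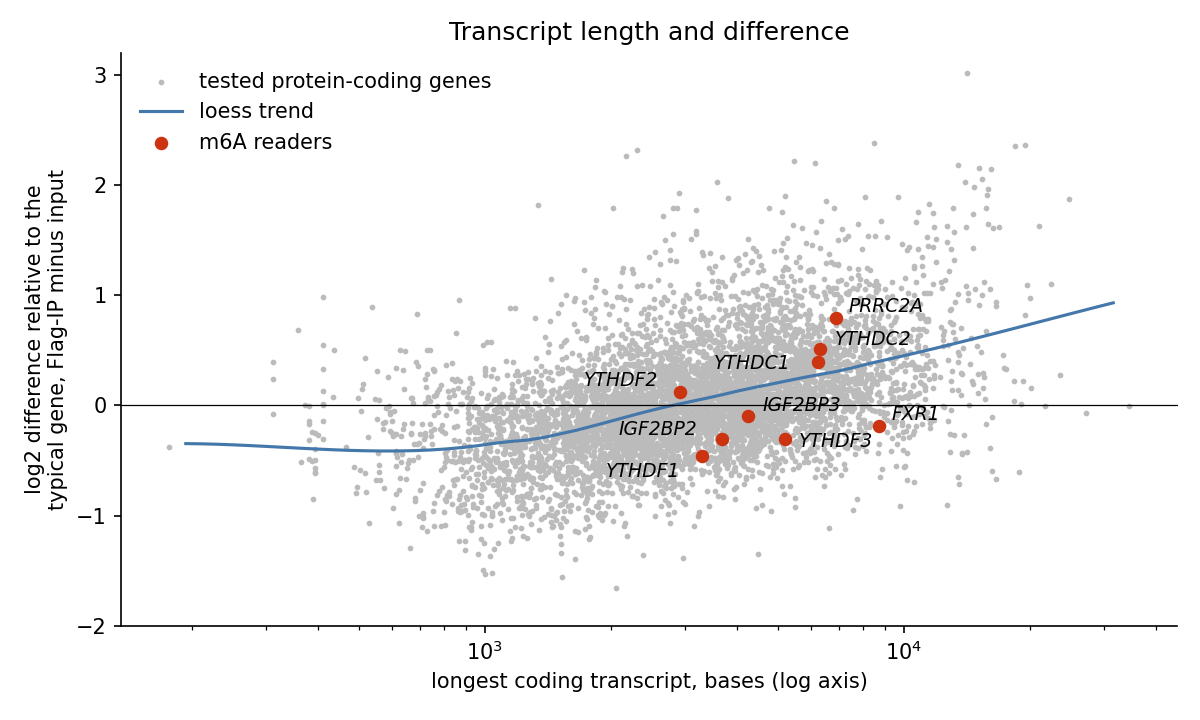
Flag-IP minus input in log2(TPM + 1) after median-ratio scaling, against the longest coding transcript in bases (log axis), for tested protein-coding genes (grey, 3 outside the vertical range) and the 9 tested readers (red), with the loess trend in blue. PRRC2A lies well above the trend, YTHDC1, YTHDC2 and YTHDF2 slightly above it, and FXR1, YTHDF3, YTHDF1, IGF2BP2 and IGF2BP3 below it.

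The rest of the m6A pathway was read from the same fits, which after median-ratio scaling called 22.3% of all tested genes higher and 18.6% lower. Of its tested genes METTL3, FTO, CNOT2, XRN1, NXF1 and CPSF6 had input means below 1 TPM and passed the filter through Flag-IP, so the counts are a description. Of 12 writer genes, the enzymes and partners that place the mark, 8 were tested; relative to the typical gene METTL3 and KIAA1429 were higher and RBM15B and METTL5 lower. METTL3, the catalytic subunit, averaged 0.675 ± 0.120 TPM over the inputs and 4.395 ± 0.332 TPM over the pull-downs; it met the filter through Flag-IP alone, so its difference of 0.90 ± 0.13 is a description. Its partner METTL14 was under the filter (0.445 ± 0.00707 and 0.960 ± 0.240 TPM). RBM15B, an adaptor of the complex, went from 1.63 ± 0.198 to 2.01 ± 0.226 TPM (-0.62 ± 0.10, limma adjusted p = 0.00548), and the most abundant writer, ZC3H13, was at -0.13 and did not pass; its sign turned with a filter at 5 TPM and with structural RNAs taken out. KIAA1429, METTL5, METTL14, CNOT2, CNOT7, XRN1, CPSF6, ELAVL1, NXF1, CNOT1, UPF1 and EIF4G1 are named here after their values were seen. The erasers did not pass: FTO was at -0.13 and ALKBH5 at -0.24 (limma adjusted p = 0.403 and 0.125).

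Of 11 tested genes among other reported readers and relatives, PRRC2B was higher, HNRNPC (-0.40 ± 0.10, limma adjusted p = 0.024) and ELAVL1 were lower, and HNRNPA2B1, the most abundant, was at 0.02, a sign that turned without a filter, without input 1 or Flag-IP 1 and with the length trend removed. The HNRNPC call was lost when any library was left out (limma adjusted p = 0.0722 to 0.102). It was also lost, at a smaller difference, with structural RNAs taken out (-0.17), quantile scaling (-0.18) and a filter at 5 TPM (-0.20), with limma adjusted p = 0.24, 0.258 and 0.151. Of 15 tested partners through which readers act on mRNA, 5 were called higher and none lower, beside the 22.3% and 18.6% of all tested genes: SMG5, NXF1, CNOT1, UPF1 and EIF4G1. NXF1, an export receptor, is one of those that met the filter through Flag-IP (averages of 0.430 TPM over the inputs and 3.71 TPM over the pull-downs). SMG5, of nonsense-mediated decay, stood highest (1.28 ± 0.12, limma adjusted p = 0.00124). CNOT1, the scaffold of the deadenylase that YTHDF2 recruits, was at 0.54 ± 0.11 (limma adjusted p = 0.0102). CNOT2 and CNOT7 of the same complex did not pass (0.13 and -0.21, limma adjusted p = 0.45 and 0.321). EIF4G1 passed narrowly (0.34 ± 0.11, limma adjusted p = 0.0487). HDLBP was lowest (-0.23), and PABPC1, the most abundant at 83.1 TPM on average, was at -0.19; neither passed, and PABPC1 turned to a positive sign with a filter at 5 TPM, quantile scaling or structural RNAs taken out. As deposited, 35 of these 36 tested pathway genes were called higher and none lower, RBM15B alone not passing, where the same test called 86.6% of all tested genes higher and 0.740% lower.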

How the data were processed

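The authors deposited TPM with 2 decimals, one value per symbol and library, for 26830 symbols. STAR, RSEM and GRCh38 are named, per the submitters' processing notes; their versions, the annotation and the strand setting were not given in the labels or file headers. Depth is unknown.

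Testing used limma 3.58.1 in R 4.3.3 (eBayes with a mean-variance trend) on log2(TPM + 1) where the mean reached 1 TPM, two-sided, Benjamini-Hochberg adjusted over 6487 genes and called below 0.05, as deposited and after median-ratio scaling. Prior degrees of freedom were infinite as deposited, where p-values may be too small, and 4.02 after scaling, with 2 residual. On simulated data for Flag-IP against input (4292 genes, log2 noise of 0.15), 97.6% of genes set 1 log2 unit higher were recovered as deposited and 0.38% of unchanged genes were called. After scaling these were 100% and 0.22%. The simulation held no shift of the typical gene, unlike the real libraries (median ratio 2.38), so its rates as deposited do not carry over to these data. Recovery was counted among genes that met the filter, 42 of 50 set 1 unit higher and 25 of 50 set 1 unit lower.

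Gene models are GENCODE 29 (23819 symbols by name, 544 by an older symbol), with the longest protein-coding transcript per gene. Members and lists were chosen with earlier results of these data known. Named were all readers, per other list the highest and lowest median-ratio difference and the highest mean, the 3 protein-coding genes nearest to the highest and the lowest reader, and ALKBH5. CNOT3 was not analysed here. Alternatives were no filter, a filter at 5 TPM, a pseudocount of 0.1, no trend, a replicate block, each library left out, quantile scaling, scaling without structural RNAs and removal of the length trend (loess, span 0.5). A crossed replicate block was added after the data were seen.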

Additional observations from a re-analysis of the deposited data

How the results depend on the processing

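Where 1 library is left out, the lone library of its group is assumed to vary like the other group. Over the alternatives, with the crossed replicate block below among them, 65 of 81 reader values as deposited kept their direction and side of the threshold. After median-ratio scaling 86 of 108 did. After scaling, signs turned for IGF2BP3 (0.066 with structural RNAs taken out, and -0.18 to 0.035 with 1 library left out, positive without Flag-IP 3), HNRNPA2B1 (-0.016 without a filter, -0.072 with the length trend removed, and -0.044 to 0.12 with 1 library left out, negative without input 1 or Flag-IP 1), ZC3H13 (0.058 with a filter at 5 TPM, 0.081 with structural RNAs taken out) and PABPC1 (0.022 with that filter, 0.40 with quantile scaling, 0.049 with structural RNAs taken out). None of these passed, and the cause was not tested.

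A filter at 5 TPM left 1539 genes, with PRRC2A as the single reader. As deposited it called 1272 genes higher and 25 lower, 1 reader higher and 19 other pathway genes higher. After scaling it called 392 genes higher and 355 lower, 1 reader higher and 0 lower, and 5 pathway genes higher and 0 lower. The other counts here are after scaling. No filter gave 1 reader and 5 pathway genes higher. Quantile scaling gave 1 reader higher and 3 lower (all genes 19.2% and 18.8%). Structural RNAs taken out gave 656 genes, 0 readers and 1 pathway gene lower. The length trend removed gave 1 reader higher and 4 lower, and 5 pathway genes higher and 10 lower (all genes 20.0% and 22.3%). Except for the smaller filtered set, the cause was not tested.

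With 1 library left out, 5 to 8 readers were higher as deposited, with 5 without input 1, input 3 or Flag-IP 1. After scaling 897 to 1226 genes were higher and 567 to 916 lower, lowest without Flag-IP 1. Readers then numbered 1 to 2 higher (1 without Flag-IP 1) and 0 to 1 lower (0 without input 3 or Flag-IP 1). Of the pathway genes 4 to 6 were higher (4 without input 3) and 1 to 2 lower. The labels do not say whether the replicate numbers pair input with Flag-IP; deviations of same-numbered libraries correlated at -0.168 as deposited and -0.187 after scaling. With the number as a replicate block, 4789 genes were higher and 35 lower as deposited and 6 readers higher. After scaling the replicate block gave 1286 and 1055 genes, 2 readers higher and 1 lower, and 2 pathway genes lower. The replicate block ended the limma calls of YTHDF3 and IGF2BP2 as deposited (adjusted p = 0.133 and 0.121) and of YTHDC1 (adjusted p = 0.0557) and HNRNPC (adjusted p = 0.0525) after scaling. A crossed replicate block, chosen after seeing the data, gave 5908 and 58 genes as deposited and 1409 and 1275 after scaling.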
